A study of Sus scrofa with 16 samples.

Results

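SGK1, the serum and glucocorticoid regulated kinase, was followed in pig liver on 3 dietary fats together with genes that glucocorticoids are known to induce (FKBP5, TSC22D3, PER1, KLF9, DUSP1 and ZBTB16) and with NR3C1, the gene of the glucocorticoid receptor. The genes were taken by their pig symbols from the gene identifiers of the count tables, and 7 of the 8 were matched among the 25880 identifiers, of which 14857 have a symbol. TSC22D3 (GILZ) was not matched and is not analysed here. The 8 genes were put together with differences between the diets in these same libraries in view, so their diet differences are given as a description, without p-values, and the count of genes past a threshold is set beside the share of all genes with nothing read from it. Tests are given for how the genes move with SGK1 among pigs on the same diet and for the sexes. The lists of other pathway genes were also drawn up with earlier results of these libraries known. Their p-values are adjusted over all genes tested, which does not undo that choice.

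The libraries came from the livers of 16 crossbred pigs, 1 library per pig, from (Polish Landrace x Polish Large White) sows and (Duroc x Pietrain) boars, which were fattened from about 60 kg to 118 kg. The diets shared their energy and protein level, and the source of fat was what differed between them. The rapeseed oil pigs (group R) were 3 gilts and 2 barrows, which are castrated males. The beef tallow pigs (group B) were 2 gilts with 3 barrows, and the coconut oil pigs (group C) were 3 of either sex. No group went without added fat, and the time of sampling and the circulating cortisol were not given in the sources used here.

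Glucocorticoids such as cortisol enter the cell and bind the receptor encoded by NR3C1, which is held by HSP90 and its partner proteins until the hormone arrives. The loaded receptor moves to the nucleus and binds short response elements in DNA, from which it raises the transcription of genes such as FKBP5, PER1 and ZBTB16. In liver this pathway is known for the induction of gluconeogenesis, amino acid breakdown and the urea cycle, and it follows the daily rhythm of the hormone, fasting and stress. SGK1 is a kinase related to AKT that acts on ion channels and on FOXO transcription factors, and its transcription also answers to serum, cell volume and other stress signals.

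On the Sscrofa11.1 assembly, RefSeq's annotation, matched by symbol, places SGK1 (ENSSSCG00000021443) on chromosome 1 from 29625786 to 29753619 and KLF9 (ENSSSCG00000021646) on chromosome 1 from 223723613 to 223747661. NR3C1 (ENSSSCG00000014401) lies on chromosome 2 from 144822937 to 144956451 and FKBP5 (ENSSSCG00000001549) on chromosome 7 from 31441764 to 31550704. ZBTB16 (ENSSSCG00000030095) lies on chromosome 9 from 41639536 to 41839254, PER1 (ENSSSCG00000017983) on chromosome 12 from 53361863 to 53376723, and DUSP1 (ENSSSCG00000016991) on chromosome 16 from 51457924 to 51461095.

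The reads on genes ranged from 705669 to 1767671 per pig (median 1018321.5), and reads with several alignments took 15.4% to 38.1% of the reads tallied. A single member took between 20 and 449 reads in a pig. Levels are given as CPM, the counts scaled by TMM to a common library size, and a fold change compares 1 gene between diets, since levels of different genes are not set against each other. The 8 hepatocyte markers that were matched were detected on each diet. Beef tallow pig 3 stood apart from the others on the first principal component (19.3% of the variance), with the lowest summed hepatocyte markers of the 16 pigs (77390 CPM) and the highest summed macrophage markers (2001 CPM). Without it, group B had 111657 CPM or more of hepatocyte markers and at most 1428 CPM of macrophage markers. Results that rest on this pig are also given without it.

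SGK1 was high in group B and similar in groups R and C. It read 126.8, 113.5, 129.97, 264.6 and 126.1 CPM in the 5 pigs of group B, against 61.8, 40.0, 58.2, 108.2 and 34.4 CPM in the 5 of group R. In group C its level ran from 33.8 to 98.2 CPM, with a median of 50.7 CPM over the 6 pigs. The lowest pig of group B stood above the highest of the other diets, while the ranges of groups R and C overlapped almost wholly. The means were 152 ± 63.1 CPM in group B (SD, n = 5), 60.5 ± 29.1 CPM in group R (SD, n = 5) and 55.8 ± 24.1 CPM in group C (SD, n = 6). On the log2 scale group B was higher than group R by 1.33 (SE 0.31), group C differed from group R by -0.14 (SE 0.30), and group C from group B by -1.46 (SE 0.29). Beef tallow pig 4 lifted the mean of group B, and without it the log2 difference from group R was 1.04.

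ZBTB16, a zinc finger transcription factor (PLZF) and a sensitive glucocorticoid target, took a graded order instead, with group B above group C and group C above group R. The 5 pigs of group B read 101.6, 113.5, 73.5, 144.5 and 127.2 CPM, and the 5 of group R 24.3, 41.04, 28.4, 74.2 and 30.5 CPM. In group C it ran from 64.8 to 108.7 CPM with a median of 79.4 CPM. Rapeseed oil pig 4 was the pig of its diet that reached the other ranges, and it passed beef tallow pig 3 by less than 1 CPM. The log2 difference was 1.49 (SE 0.28) for group B against group R, 1.03 (SE 0.25) for group C against group R and -0.47 (SE 0.19) for group C against group B. Groups B and C overlapped.

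FKBP5 encodes an HSP90 partner that lowers the receptor's affinity for the hormone, so it closes a feedback loop on the pathway. It read 190.3, 209.0, 147.0, 291.1 and 181.4 CPM in group B and 20.6, 141.6, 58.2, 160.7 and 62.0 CPM in group R, and it ran from 58.6 to 200.9 CPM in group C with a median of 149 CPM. Group B was narrow and high, whereas groups R and C each held both low pigs and pigs at the level of group B. Its log2 differences were 1.20 (SE 0.39) for group B against R, 0.64 (SE 0.39) for group C against R and -0.57 (SE 0.27) for group C against B.

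PER1, a repressor of the circadian clock that glucocorticoids induce directly, read 147.5, 128.4, 89.9, 172.1 and 131.6 CPM in group B and 36.8, 99.5, 78.9, 87.6 and 72.8 CPM in group R. Group C lay between 74.0 and 151.3 CPM with a median of 93.4 CPM, and below coconut oil pig 1 the next highest pig read 101.7 CPM. The log2 difference from group R was 0.84 (SE 0.25) in group B and 0.42 (SE 0.23) in group C. KLF9, a zinc finger repressor that is also a direct target, overlapped between all the diets. Its levels were 289.6, 276.9, 175.3, 280.5 and 183.6 CPM in group B, 78.7, 183.6, 152.5, 286.4 and 99.3 CPM in group R and 143.7 to 291.0 CPM in group C (median 224 CPM). The log2 difference of KLF9 from group R was 0.59 (SE 0.29) in group B and 0.44 (SE 0.27) in group C, and group C differed from group B by -0.15 (SE 0.21) for KLF9 and by -0.42 (SE 0.21) for PER1.

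DUSP1, a phosphatase that switches off MAP kinases, is both a glucocorticoid target and an immediate-early gene. Group B read 115.4, 91.2, 13.8, 221.0 and 74.1 CPM, group R 41.2, 41.04, 34.9, 78.3 and 19.7 CPM, and group C 48.3 to 97.3 CPM with a median of 67.1 CPM. Beef tallow pigs thus held both the highest and the lowest DUSP1 level of all 16, the lowest being pig 3 with 21 reads. The log2 difference of group B from group R was 1.25 (SE 0.49), 1.54 without beef tallow pig 3 and 0.77 without beef tallow pig 4. Against group R, group C differed by 0.66 (SE 0.27). Against group B it differed by -0.58 (SE 0.42), and by -0.10 without beef tallow pig 4.

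NR3C1, the receptor itself, was not higher in group B. It read 72.6, 75.3, 67.6, 82.9 and 71.9 CPM in group B and 85.3, 73.9, 91.8, 103.0 and 77.7 CPM in group R, and it ran from 39.6 to 97.2 CPM in group C with a median of 65.1 CPM. Its log2 differences were -0.22 (SE 0.17) for group B against R, -0.35 (SE 0.19) for group C against R and -0.12 (SE 0.20) for group C against B. In bulk liver, fewer cells of a type and less RNA per cell cannot be told apart.

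**Figure D1:**
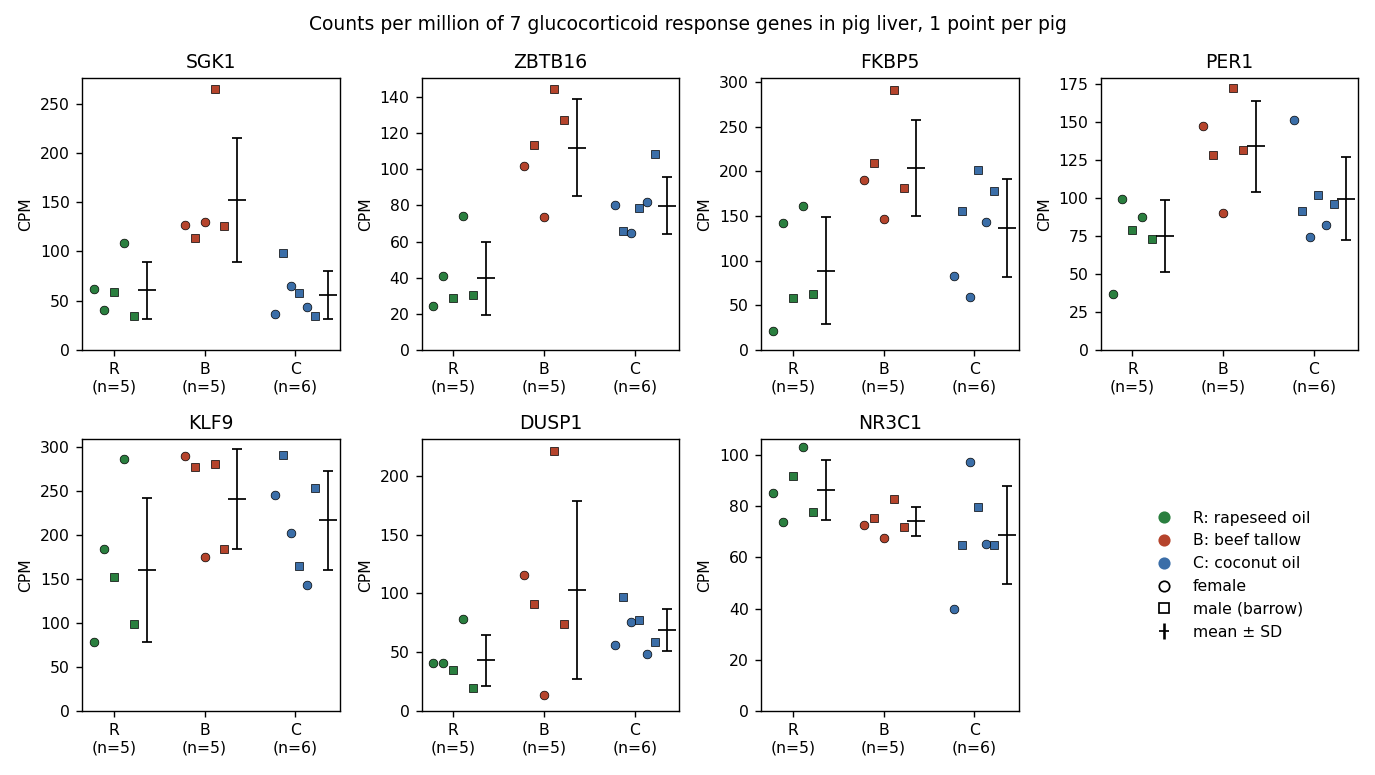
Level of each of the 7 genes in CPM (y axis, starting at 0) for every pig of rapeseed oil (R, 5 pigs), beef tallow (B, 5 pigs) and coconut oil (C, 6 pigs), with circles for gilts, squares for barrows and bars for mean ± SD. SGK1 is the only gene of the 7 whose group B lies wholly above both other groups, and ZBTB16 shows group C between the others.

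Read side by side, the 6 genes other than NR3C1 were higher in group B than in group R, by 0.59 to 1.49 on the log2 scale. The median over the 7 genes was 1.20, and over all 6318 genes tested it was 0.01. An adjusted p of edgeR under 0.05 was met by 2 of 7 genes (0 to 4 with each pig left out), where 1.11% of all genes tested did (0.649% in that direction). SGK1 alone had groups that did not overlap, as did 4.57% of all genes (2.58% with group B higher). For group C against R the median was 0.44 (all 6528 genes tested -0.00), and 0 of 7 passed by edgeR where 0.138% of all genes did, with 2 of 7 at an unadjusted p under 0.05 and 1 by DESeq2. None of the 7 had groups without overlap there (1.46% of all genes). For group C against B the median was -0.47 (all 6812 genes tested -0.00), and 0 of 7 passed by edgeR where 0.0587% did, with 3 of 7 at an unadjusted p under 0.05 and 1 by DESeq2, while SGK1 again had groups without overlap (1.45% of all genes). Nothing is read from these counts, since the genes were chosen on the same contrasts, and each comparison shares pigs with the other ones.

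In group C against R the log2 difference of SGK1 lay below those of the other induced genes. For the 5 other induced genes group C stood above group R, by 0.42 to 1.03 on the log2 scale, while SGK1 stood at -0.14 (SE 0.30). This contrast between genes was not tested, and it is a description only, since the genes were chosen on the same comparisons. The ratio of SGK1 to ZBTB16 within a pig had a median of 1.46 for rapeseed oil, 1.25 for beef tallow and 0.63 for coconut oil, and that of SGK1 to NR3C1 one of 0.63, 1.75 and 0.70. These ratios are read only between diets, not as levels of one gene against another. Coconut oil pig 6 had the lowest SGK1 of all 16 pigs and ranked 4 of 16 for ZBTB16, and without rapeseed oil pig 4 the log2 difference of SGK1 between groups C and R was 0.17.

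**Figure D2:**
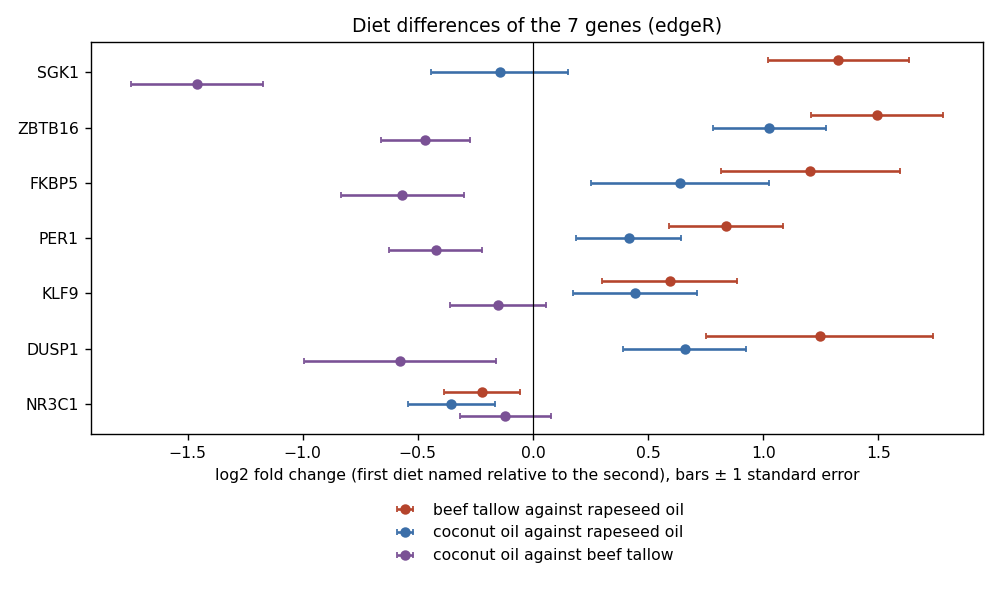
Log2 fold change of each gene (x axis) in the 3 comparisons of diets, with the first diet named relative to the second and bars of ± 1 standard error from edgeR. ZBTB16, FKBP5, PER1, KLF9 and DUSP1 lie above 0 in both comparisons with rapeseed oil, whereas SGK1 lies at 1.33 for beef tallow and at -0.14 for coconut oil.

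Summed markers of sinusoidal endothelium, the lining of the liver's blood spaces, ran from 351 to 410 CPM in group B, with or without beef tallow pig 3, from 237 to 389 CPM in group R and from 299 to 379 CPM in group C. Of the 6 matched endothelial markers 5 were detected and EGFL7 was at 0 in all groups. LYVE1 was higher in group B than R (log2 0.88, SE 0.20, edgeR adjusted p = 0.0495), 1 of the 4 that were tested. In that comparison CLEC4G stood at 0.42 (SE 0.20), PECAM1 at 0.32 (SE 0.19) and CDH5 at -0.31 (SE 0.29). LYVE1 stood at 0.86 (SE 0.21) in group C against R and at -0.02 (SE 0.21) in group C against B. Summed hepatocyte markers ran from 77390 to 171672 CPM in group B (from 111657 CPM without beef tallow pig 3) and from 131089 to 182666 CPM in group R, and TTR was the 1 of 8 to pass (log2 -0.78 in group B, SE 0.17, edgeR adjusted p = 0.0426). Stellate cell and fibroblast markers summed to 312 to 794 CPM in group B (to 529 CPM without beef tallow pig 3), 344 to 851 in R and 312 to 737 in C. In group B against R ACTA2 stood at 1.42 (SE 0.55, edgeR adjusted p = 0.224), the others tested from -0.52 (COL1A2) to -0.01 (COL1A1). Erythroid markers summed to 1646 to 2909 CPM in group B (from 1909 without beef tallow pig 3), 506 to 4675 in R and 1276 to 4983 in C. Summed markers of cholangiocytes, T and NK cells, B cells and neutrophils reached at most 54.4 CPM in a pig. The part of these cell types in the levels of the 7 genes was not tested.

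Whether SGK1 moved with the other genes was asked next among pigs on the same diet, which the choice of genes did not use. For each pig the deviation of its log2 CPM from the mean of its diet was taken, and pairs of genes were correlated over the 16 pigs, with permutation of the pigs within diets (two-sided, 100000 permutations) and Benjamini-Hochberg adjustment over the 21 pairs. No pair passed 0.05 after adjustment, and 9 of the 21 had an unadjusted p under 0.05 for Pearson's r.

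SGK1 deviated most closely with DUSP1 and NR3C1. With DUSP1, r was 0.59 (permutation p = 0.0172, adjusted 0.0757) and Spearman's rho 0.67 (permutation p = 0.0046, adjusted 0.0504), and both deviations had the same sign in 12 of 16 pigs. Beef tallow pig 3 lay far from the rest of that relation, with SGK1 close to its diet mean and DUSP1 far under it. Without this pig r was 0.87, and without beef tallow pig 4, the highest of all 16 for both genes, it was 0.45. These were the highest and the lowest r with any single pig left out. Without both of these pigs, whose SGK1 level lay farthest from the median, r was 0.83. It was 0.89 within the 6 pigs of group C, 0.89 in the 8 barrows and 0.32 in the 8 gilts, to which beef tallow pig 3 belongs.

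With NR3C1, r was 0.55 (permutation p = 0.0359, adjusted 0.0837) and rho 0.71 (permutation p = 0.00888, adjusted 0.0604), with the same sign in 13 of 16 pigs. Leaving out any single pig kept that r between 0.50 and 0.65, and without beef tallow pigs 3 and 4 it was 0.55. It was 0.47 within the 6 pigs of group C, 0.43 in the 8 barrows and 0.75 in the 8 gilts. The deviations of NR3C1 also went with the share of reads that had several alignments (r = 0.65), as did those of SGK1 to a lesser degree (r = 0.33), and the part of that share in the relation was not tested.

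With KLF9, ZBTB16, FKBP5 and PER1 the r of SGK1 was lower. That with KLF9 was 0.38 (permutation p = 0.204, adjusted 0.286; rho 0.24, permutation p = 0.448, adjusted 0.672), and without rapeseed oil pig 4 it was 0.11. With ZBTB16 r was 0.22 (permutation p = 0.476, adjusted 0.625) and rho -0.14 (permutation p = 0.646, adjusted 0.744), and without rapeseed oil pig 4 r was -0.25. With FKBP5 r was 0.18 (permutation p = 0.580, adjusted 0.712) and rho 0.16 (permutation p = 0.611, adjusted 0.744), and r was -0.07 without rapeseed oil pig 4. With PER1 r was -0.04 (permutation p = 0.898, adjusted 0.898) and rho -0.12 (permutation p = 0.673, adjusted 0.744), with r at -0.18 without that pig. Without beef tallow pigs 3 and 4 the 4 values of r were 0.38, 0.12, 0.10 and -0.21 in the same order. Within the 6 pigs of group C they were 0.20, -0.82, -0.003 and -0.43. In the 8 gilts they were 0.28, 0.37, -0.004 and -0.26, and in the 8 barrows 0.42, -0.42, 0.29 and 0.56.

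**Figure D3:**
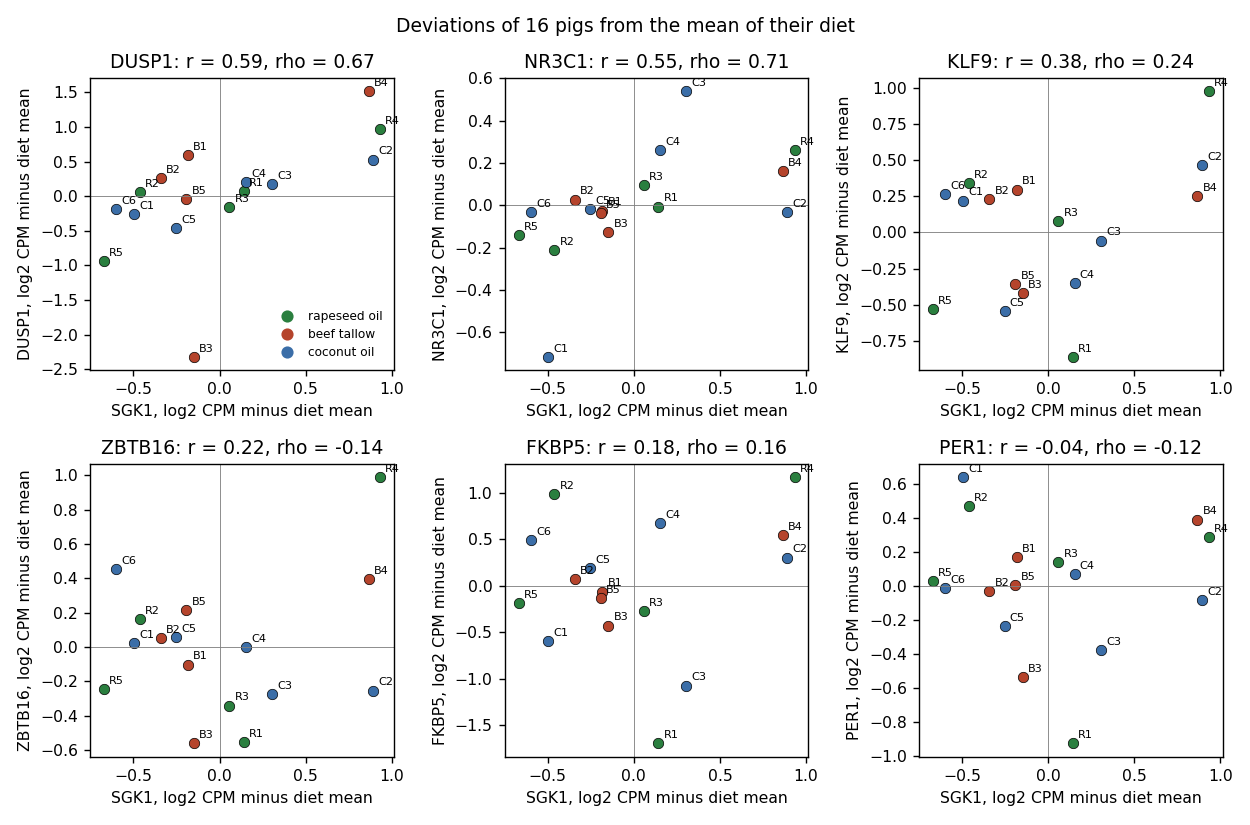
Deviation of SGK1 from the mean of its diet in log2 CPM (x axis) against that of the 6 other genes (y axis), 1 point per pig and 16 pigs in each panel, coloured by diet. DUSP1 (r = 0.59) rises with SGK1 apart from beef tallow pig 3 (B3), while FKBP5 (r = 0.18) and PER1 (r = -0.04) scatter.

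Pairs among KLF9, ZBTB16, FKBP5 and PER1, with DUSP1 left out, had r from 0.59 to 0.74, and from 0.40 to 0.68 without rapeseed oil pig 4. In the 8 gilts these r ran from 0.71 to 0.87 and in the 8 barrows from -0.09 to 0.87. Within the 6 pigs of group C they ran from -0.10 to 0.48. FKBP5 with KLF9 (r = 0.62) had an unadjusted permutation p of 0.0518 (adjusted 0.109). For ZBTB16 with PER1 (r = 0.59) it was 0.0608 (adjusted 0.116). FKBP5 and ZBTB16 had the highest r of the 21 pairs, 0.74 (permutation p = 0.00612, adjusted 0.0757; rho 0.73, permutation p = 0.0048, adjusted 0.0504), with the same sign in 12 of 16 pigs. PER1 and KLF9 stood at 0.66 (permutation p = 0.018, adjusted 0.0757; rho 0.55, adjusted 0.118), ZBTB16 and KLF9 at 0.65 (permutation p = 0.0298, adjusted 0.0837; rho 0.47, adjusted 0.205) and FKBP5 and PER1 at 0.64 (permutation p = 0.0283, adjusted 0.0837; rho 0.46, adjusted 0.205). Rapeseed oil pig 1, with the lowest level of FKBP5, ZBTB16, PER1 and KLF9 among all 16 pigs, moved these values, and without it r was 0.69 for FKBP5 and ZBTB16, 0.48 for PER1 and KLF9, 0.56 for ZBTB16 and KLF9 and 0.34 for FKBP5 and PER1. Without rapeseed oil pig 4 the same pairs stood at 0.67, 0.68, 0.40 and 0.62. Without both rapeseed oil pigs 1 and 3, the farthest from the median of FKBP5, r was 0.64 for FKBP5 and ZBTB16 and 0.33 for FKBP5 and PER1. DUSP1 and KLF9 stood at 0.55 (permutation p = 0.00804, adjusted 0.0757; rho 0.61, adjusted 0.0604), and at 0.47 without rapeseed oil pig 4. The r of DUSP1, also a glucocorticoid target, was 0.55 with ZBTB16, 0.40 with PER1 and 0.34 with FKBP5. Setting DUSP1 apart from the other induced genes was not tested.

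The median r of SGK1 with its 6 partners was 0.30, with 5 of 6 positive, and the median over the 15 pairs of the other genes was 0.55, with 14 of 15 positive. Without rapeseed oil pig 4 these medians were 0.02, with 3 of 6 positive, and 0.40, with 11 of 15. With any other pig left out they ran from 0.23 to 0.41 and from 0.42 to 0.57. The exception was PER1 with NR3C1 (r = -0.33, permutation p = 0.194, adjusted 0.286), where r was 0.04 without coconut oil pig 1. The difference between the medians was not tested, since the pairs share genes and pigs.

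**Figure D4:**
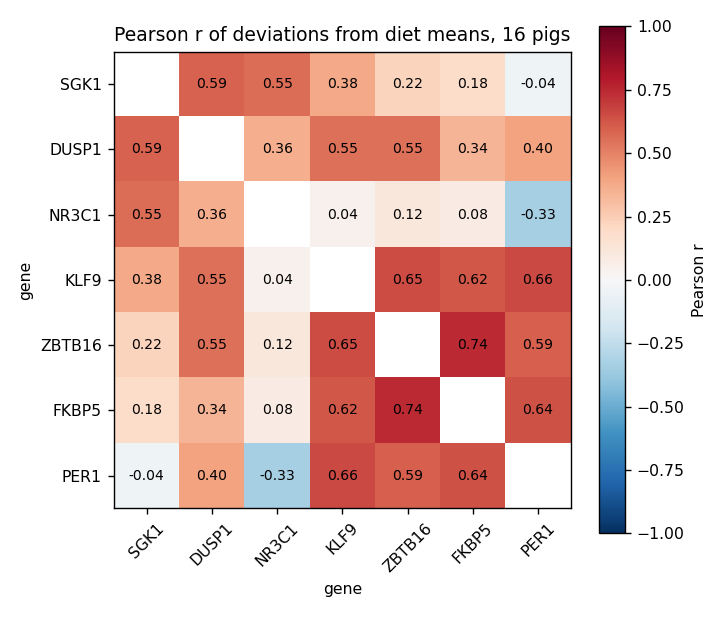
Pearson's r between the deviations of each pair of the 7 genes from their diet means over 16 pigs, on a scale from -1 (blue) to 1 (red). FKBP5, ZBTB16, PER1 and KLF9 have r from 0.59 to 0.74 with each other (0.40 to 0.68 without rapeseed oil pig 4), and SGK1 reaches its highest values with DUSP1 (0.59) and NR3C1 (0.55).

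The same question was put to all genes by a fit of each gene's counts on SGK1 with the diet as a factor (edgeR, 6890 genes). Of these, 0 passed an adjusted p of 0.05, and 435 had an unadjusted p under 0.05 (6.31%). By DESeq2 5 genes passed. By edgeR 6 passed without the filter on low counts, 5 without beef tallow pig 3, 3 without coconut oil pig 2 and 0 with any other single pig left out. DUSP1 had the steepest slope of the members and ranked 16 of 6890 by p, and 129 of 6890 by the r of deviations within diets. Its level rose by 0.92 log2 units per log2 unit of SGK1 in that fit (SE 0.26, edgeR adjusted p = 0.698, unadjusted p = 0.00187). Without beef tallow pig 3 the slope was 0.85 with an edgeR adjusted p of 0.0173, so that DUSP1 was among the 5 genes then past the threshold. With each pig left out in turn the slope ran from 0.72, without beef tallow pig 4, to 1.02, without coconut oil pig 2. DUSP1 was the 1 of 6 members with an unadjusted p under 0.05, and DESeq2 called 0 of 6. The slopes of KLF9 (0.35, SE 0.19), FKBP5 (0.30, SE 0.28), NR3C1 (0.28, SE 0.14), ZBTB16 (0.20, SE 0.19) and PER1 (-0.03, SE 0.18) had edgeR adjusted p-values between 0.796 and 0.993.

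Seen pig by pig, the members marked a few animals. Beef tallow pig 4, a barrow, ranked first of 16 for SGK1, DUSP1, FKBP5, ZBTB16 and PER1 and 4 for KLF9. Rapeseed oil pig 4, a gilt, had the highest SGK1, DUSP1, FKBP5, ZBTB16, KLF9 and NR3C1 of its diet. Beef tallow pig 3 ranked second for SGK1, between 9 and 11 for FKBP5, ZBTB16, PER1 and KLF9, and last for DUSP1.

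Spread between pigs on the same diet differed among the members. The within-diet SD of log2 CPM was 0.90 for DUSP1, 0.79 for FKBP5, 0.56 for SGK1, 0.51 for KLF9, 0.43 for ZBTB16, 0.42 for PER1 and 0.29 for NR3C1, against a median of 0.39 over 6891 genes. Among genes of a like level, within 0.25 log2 units, DUSP1 had a larger SD than 99.0% of them, FKBP5 than 97.0% and SGK1 than 91.8%. The value of DUSP1 rested on beef tallow pig 3. Without that pig its SD was 0.57, larger than in 94.3% of the genes of like level, and FKBP5 had the widest spread of the 7 genes with 0.81, beside 0.58 for SGK1. NR3C1 had the smallest SD of the 7 with and without that pig, with a larger SD than 35.7% of the genes of like level over all 16 pigs. The SD that counting reads alone would give, by the Poisson law, was 0.10 to 0.20 over the 7 genes, with 0.18 for SGK1 and 0.16 for NR3C1.

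No member passed a test between the sexes. Over all 16 pigs with diet in the fit, barrows differed from gilts by 0.12 on the log2 scale for SGK1 (SE 0.27), 0.27 for FKBP5 (SE 0.32) and 0.25 for DUSP1 (SE 0.37), and by -0.02 to 0.09 for the other genes. By edgeR 0 of 7 members passed the threshold (0.0871% of 6891 genes did) and 0 of 7 had an unadjusted p under 0.05 (4.92% of all genes, smallest member p 0.406 for FKBP5), and DESeq2 called 0 as well. SGK1 ran from 36.4 to 129.97 CPM in the 8 gilts and from 33.8 to 264.6 CPM in the 8 barrows. For the interaction of sex and diet, edgeR called 0 of 7 members and 0 of 6891 genes, and 0 of 7 members had an unadjusted p under 0.05 (3.41% of all genes, smallest member p 0.0807 for FKBP5), and DESeq2 called 0 members.

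The other genes of the pathway were taken from 8 lists with 190 genes, of which 167 were matched and 111 tested in group B against R. These lists were drawn up with earlier results of the same libraries known. Their counts, shares, medians and p-values between diets are therefore a description, and nothing is read from them. In group B against R 2 of 111 passed the threshold (1.80%, beside 1.11% of all genes, and 0.649% higher), both higher in group B. HAL, the histidine ammonia lyase that starts histidine breakdown, was higher by 1.39 on the log2 scale (SE 0.29, edgeR adjusted p = 0.0305). CD163, the haemoglobin scavenger receptor of macrophages, was higher by 0.79 (SE 0.17, edgeR adjusted p = 0.0414), and it is also a marker of Kupffer cells. The 9 matched Kupffer and macrophage markers were detected on each diet, their sum ran from 1041 to 2001 CPM in group B (to 1428 CPM without beef tallow pig 3), from 825 to 1374 CPM in group R and from 817 to 1082 CPM in group C, and CD163 was the only one of 8 tested to pass. In group B against R MARCO was at -0.55 (SE 0.32), and the remaining ones tested ran from 0.14 (CD14) to 0.67 (C1QB). The 2 calls moved with single pigs. The count was 4 without beef tallow pig 3, 1 without rapeseed oil pig 1 or 4 or beef tallow pig 1, and 0 without rapeseed oil pig 2, 3 or 5 or beef tallow pig 2, 4 or 5.

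Without adjustment, 27 of 111 listed genes had a p under 0.05 (24.3%, beside 15% of all genes), and the median log2 difference of the lists together was 0.25, beside 0.01 for all genes. These values are likewise only a description, given how the lists were chosen. The glucocorticoid-induced enzymes and secreted factors of the liver had a median of 0.45, with 13 of 16 above 0, 1 past the threshold and 15 not. SDS, the serine dehydratase of gluconeogenesis, stood at 1.41 (SE 0.53, edgeR adjusted p = 0.214). CPS1 and ARG1, the first and last enzymes of the urea cycle, stood at 0.83 (SE 0.20, edgeR adjusted p = 0.0627) and 0.77 (SE 0.24, edgeR adjusted p = 0.135), chosen here after their values were seen. PCK1, the gluconeogenic enzyme often used to read hormone action, was at -0.01 (SE 0.31), and it was likewise picked with its value known.

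The glucocorticoid-induced genes of many tissues had a median of 0.42 in group B against R, with 16 of 19 above 0, 1 past the threshold (CD163) and 18 not. DDIT4, an inhibitor of mTOR that rises with stress and glucocorticoids, stood at 1.33 (SE 0.48, edgeR adjusted p = 0.183) and GADD45B, a stress response gene, at 0.83 (SE 0.37, edgeR adjusted p = 0.295). Among receptor, chaperones and cofactors the median was 0.18 with 0 of 16 past the threshold, and the largest values were those of FKBP4, an HSP90 partner (0.79, SE 0.29), and HSP90AA1, the inducible HSP90 (0.47, SE 0.18). Of the genes of cortisol supply and clearance 0 of 5 passed. SERPINA6, the cortisol carrier of plasma that is made in liver, was at -0.67 (SE 0.22, edgeR adjusted p = 0.144) and SULT2A1, a steroid sulfotransferase, at 0.63 (SE 0.18, edgeR adjusted p = 0.0998).

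Around SGK1 itself, 0 of 13 genes of the kinase pathway passed, with a median of 0.05. Its paralog SGK2 stood at -1.21 in group B against R (SE 0.44, edgeR adjusted p = 0.186), opposite in sign to SGK1, at a mean of 10.1 CPM in group B, and GSK3B, a substrate kinase, at 0.44 (SE 0.26). The circadian clock genes had a median of 0.12 with 0 of 12 past the threshold, led by NFIL3 (0.97, SE 0.37) and CRY1 (0.80, SE 0.25). The immediate-early and early response genes had a median of 0.20 with 0 of 15, led by FOSL2 (1.00, SE 0.29) and CCN2 (0.83, SE 0.52). Relatives of the members had a median of 0.09 with 0 of 15, led by FKBP3 (-0.88, SE 0.35) and TSC22D2 (0.72, SE 0.24).

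For group C against R, 0 of 114 listed genes passed the threshold by edgeR and 5 by DESeq2, 22 had an unadjusted p under 0.05 (19.3%, beside 13% of all genes) and the median was 0.12 (all genes -0.00). For group C against B, 0 of 119 passed by edgeR and 2 by DESeq2, 11 had an unadjusted p under 0.05 (9.24%, beside 11.5% of all genes) and the median was -0.07 (all genes -0.00). The liver enzymes had a median of 0.22 in group C against R and -0.20 against B, and the induced genes of many tissues 0.33 and -0.14. These are comparisons that share pigs with that of group B against R. Of the listed genes named for group B against R, some had a larger log2 difference in group C against R. They were SERPINA6 (-0.71, SE 0.18), FKBP4 (0.87, SE 0.28) and CCN2 (0.96, SE 0.37). Apart from PCK1 (0.05), the rest of those named differed less, from -0.67 for FKBP3 to 0.68 for DDIT4. These values are likewise only a description.

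Within diets, 0 of the listed genes passed the threshold for a slope on SGK1 (edgeR). Without adjustment, 7 of 19 induced genes of many tissues had a positive slope with p under 0.05, where 3.53% of all genes did, and 0 of 19 a negative one. These were KLF15, SLC38A2, BCL6, ERRFI1, CEBPB, GADD45B and SESN1, named after their values were seen. KLF15, a transcription factor that turns on amino acid breakdown, had a slope of 0.69 (SE 0.17, edgeR adjusted p = 0.698). Of the liver enzymes 1 of 17 had a positive slope at that p and 0 a negative one. It was TAT, the tyrosine aminotransferase, at 0.84 (SE 0.28, edgeR adjusted p = 0.718). Of the immediate-early and early response genes 2 of 15 had a positive slope (BTG1 and KLF2) and 0 a negative one. Among receptor, chaperones and cofactors 2 of 17 were negative (SMARCA4 and HSP90AB1) and 0 positive, of the clock genes 1 of 14 was negative (PER2) and 1 positive (NFIL3), and of the SGK kinase pathway 1 of 14 was negative (AKT2) and 0 positive. Of the 5 genes of cortisol supply and clearance and the 18 relatives of the members, 0 did so in either direction. The median slope was highest for the immediate-early genes (0.30), followed by cortisol supply (0.21), the liver enzymes (0.17) and the induced genes of many tissues (0.16), and it was 0.00 for the SGK kinase pathway, -0.01 for the relatives, -0.05 for receptor, chaperones and cofactors and -0.13 for the clock genes, beside 0.00 over all genes.

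Among all 6890 genes, those whose centred log2 CPM lay nearest to SGK1 over the 16 pigs were ENSSSCG00000032381, which the annotation tables used here pair with no symbol (root mean square difference 0.48), GRAMD2B (0.49), B4GALT5 (0.49), ENSSSCG00000039761 (0.51) and SIK1, a salt-inducible kinase (0.51). This measure includes the difference between the diets. By Pearson's r of the deviations within diets the nearest were STRADB (0.84), ENSSSCG00000039761 (0.81), PREPL (0.80), ENSSSCG00000040854 (0.80) and PPP4R2 (0.80). They are the extremes of 6890 genes, and the only gene on both lists was ENSSSCG00000039761. No member was among either 5. A higher r within diets than that of DUSP1 was found in 1.86% of the genes, and than that of NR3C1 in 2.69%. For KLF9 the share was 10.4%, for ZBTB16 24.8%, for FKBP5 29.1% and for PER1 55.8%. By the root mean square difference, from 8.68% (KLF9) to 44.9% (FKBP5) of the genes lay nearer to SGK1 than a member.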

How the data were processed

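QuantSeq 3′ libraries (FWD kit), which are read from the 3′ ends of mRNA, were made from the liver RNA of 16 pigs. Read quality was checked with FastQC, adapters were trimmed with FLEXBAR, and TopHat and HTSeq served the authors for mapping to the pig genome and counting per Ensembl gene. The deposited tables hold whole, unnormalized counts. The strand setting of the counting is not given in the sources used here, so reads of overlapping antisense genes may be mixed. Reads with several alignments were counted on no gene. The 5 rows that name no gene stayed out of library sizes and tests, and the reads on genes were 42.8% to 55.1% of all reads tallied.

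The diets were compared pairwise, without covariates, using edgeR 4.0.16 (quasi-likelihood F test, R 4.3.3), with TMM normalization, filterByExpr (minimum count 10, minimum total count 15) and Benjamini-Hochberg adjustment over all genes tested, at a threshold of 0.05. The 7 matched members passed this filter in each pair. The standard error is the log2 fold change divided by the square root of F. Log2 CPM used a prior count of 2. Sex, its interaction with diet, and the slope on SGK1 with diet as a factor were fitted over all 16 pigs. Correlations were tested by permutation within diets with numpy 2.4.6, and the 2 pigs left out of a correlation are those whose level of the first gene lay farthest from the median. Scripts were tested on simulated data.

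The members and all lists were chosen with earlier results of these data known. Besides the members, the genes named are listed genes past the threshold, the 2 largest log2 differences per list in group B against R, and the 5 genes nearest to SGK1 by each measure. CPS1, ARG1, PCK1, KLF15, SLC38A2, BCL6, ERRFI1, CEBPB, SESN1, TAT, BTG1, KLF2, SMARCA4, HSP90AB1, PER2, AKT2, LYVE1, TTR and the other cell markers besides CD163, and GADD45B and NFIL3 for their slopes on SGK1, were named after their values were seen. Spread and correlations without single pigs were added after seeing the data. Alternatives were DESeq2 1.42.0, RLE normalization, no filter, a filter of 10 reads in every pig, 1 fit over all 16 pigs, a covariate for sex, a block for the replicate number, and omission of each pig in turn. The labels give no batches. Sources differ on the RNA extraction kit. Pigs are separate animals, and 120 pairs of libraries held 0 identical ones.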

Additional observations from a re-analysis of the deposited data

Results flagged for a closer look

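In 21 groups of pigs, 7 genes on 3 diets, 2 held a pig whose gap to its nearest neighbour was large for the group's range by Dixon's criterion. Chance alone meets this criterion in about 1 of 20 groups if the values are normally distributed. It was applied to CPM and not to log2 CPM, and that condition was not tested. SGK1 in beef tallow pig 4 read 264.6 CPM, with the next pig of its diet at 129.97 CPM, a gap of 0.891 of the whole range where 0.71 is critical for 5 pigs. PER1 in coconut oil pig 1 read 151.3 CPM, with the next pig at 101.7 CPM, a gap of 0.642 of the range where 0.625 is critical for 6 pigs. Beef tallow pig 4 also had the highest DUSP1, FKBP5, ZBTB16 and PER1 of the 16 pigs, and coconut oil pig 1 had the lowest NR3C1 (39.6 CPM).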

How the results depend on the processing

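The 21 log2 differences of the 7 genes moved by less than 1 SD between pigs in all 371 alternative fits, and 2 changed sign, both for SGK1 in group C against R (0.01 with the replicate block, 0.17 without rapeseed oil pig 4). That yardstick is wide, since leaving 1 pig out of a group can hardly move its mean by so much, and nothing is concluded from it. With each pig left out, DUSP1 ran from 0.77 to 1.57 in group B against R and from -0.88 to -0.10 in group C against B. Counts of calls moved as well, and the cause was not tested. In group B against R, where 2 members passed, 1 did with RLE, 5 without the filter and 1 with sex as a covariate, and 0 to 4 with each pig left out (4 without beef tallow pig 3, 2 without rapeseed oil pig 4, 1 without beef tallow pig 1 or 2, and 0 without any of the others). Of the listed genes there, 2 in the main fit, 6 passed without the filter, 4 with DESeq2, 0 with the replicate block and 0 to 4 with each pig left out. In group C against R, from 0 and 0, the counts of members and listed genes were 1 and 4 without the filter, 1 and 5 with DESeq2, and 0 to 1 and 0 to 2 with each pig left out. In group C against B, from 0 and 0, they were 1 and 1 without the filter, 1 and 2 with DESeq2, and 0 to 1 for both with each pig left out. Members following SGK1 within diets were 0, and 0 to 1 with each pig left out. Slopes on SGK1 that changed sign were those of FKBP5 (-0.23 with the replicate block), ZBTB16 (-0.13 without rapeseed oil pig 4, the lowest of a range to 0.34 with each pig left out) and PER1 (0.04 without rapeseed oil pig 2, and 0.0788, 0.01 and 0.00315 without coconut oil pigs 1, 2 and 3, the lowest with a pig left out being -0.18 without beef tallow pig 4). No alternative called a member for sex or its interaction with diet.

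Pigs that share a number did not deviate together (r from -0.25 to 0.14). Whether the numbers stand for anything else was not tested. The replicate block otherwise left the counts of members called at 2, 0 and 0 in the 3 pairs of diets. Members took as few as 20 reads in a pig.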
